A study of Mus musculus with 159 samples.

Results

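The genes described here are Pip, Chia1, Scgb1b27, Bpifa2 and Amy1, 5 of the 18954 named genes measured in 159 mammary tumors. They encode secreted proteins of the salivary glands and of apocrine glands. They were picked out with their spread and co-variation across these same tumors already known. Their level, spread, high tumors and co-variation with one another are therefore given as descriptions without a test. The tumors came from female mice of the DO x PyMT cross at about 100 days of age, 1 tumor per animal. The Diversity Outbred (DO) parents were of generation 7, and every animal carried the PyMT transgene, a viral oncogene under the MMTV promoter, so that tumors arose without treatment. There was 1 group and no normal mammary gland or other control, and values are compared between tumors within that group. Each tumor is named by its animal number.

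Salivary glands are built from acini, which make a protein-rich fluid, and ducts, which modify it. The parotid acinus is known for amylase, parotid secretory protein and DNase I, while the submandibular gland of the mouse is known for kallikreins, growth factors and mucin-like proteins in its granular ducts and acini. Secretoglobins and prolactin-inducible protein are made by salivary, lacrimal and apocrine glands, and the human form of prolactin-inducible protein is a marker of apocrine differentiation in the breast. Mammary, salivary and apocrine glands share an origin in epithelial buds.

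The members fall into 3 roles. Amy1 (salivary amylase) and Chia1 (acidic mammalian chitinase) are enzymes that cut polysaccharides. Bpifa2 (parotid secretory protein, of the BPI fold family) and Pip (prolactin-inducible protein) are small secreted proteins of saliva and other fluids. Scgb1b27 is a secretoglobin, the alpha chain of an androgen-binding protein whose partner chains belong to the Scgb2b genes. In the GRCm38.p6 annotation Pip lies at chr6:41847549-41852065, Chia1 at chr3:106113382-106132118, Scgb1b27 at chr7:34021481-34022881, Bpifa2 at chr2:154008276-154016073 and Amy1 at chr3:113555952-113577750. Each of the 5 had 1 probe set, and no probe set of another amylase gene carried a single gene symbol. Whether the Amy1 probe set also read RNA of other amylase genes was not tested.

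The 200 bases ahead of each annotated start are printed because the genes fell into sets that moved together, as described below. The sequences are from RefSeq on GRCm38.p6, run 5′ to 3′ on the strand of the gene and end at the base before the start. Capitals mark, on either strand, the letters TATAAA of a TATA box, the letters AGAACA of a steroid receptor half-site or the letters TGTTTAC bound by FOXA factors. Of 32817 windows of 200 bases ahead of annotated starts, 10% held the first motif, 12.9% the second and 2.5% the third. No 2 matches overlapped. Chia1 is on the plus strand at chr3:106113182-106113381, Bpifa2 on the plus strand at chr2:154008076-154008275 and Pip on the plus strand at chr6:41847349-41847548. Amy1 has 2 annotated starts, both on the minus strand, with windows at chr3:113577751-113577950 and chr3:113574763-113574962. Scgb1b27 is on the plus strand at chr7:34021281-34021480, and its neighbor Scgb2b27, shown because its level followed that of Scgb1b27 most closely, is on the minus strand at chr7:34013943-34014142.
Chia1: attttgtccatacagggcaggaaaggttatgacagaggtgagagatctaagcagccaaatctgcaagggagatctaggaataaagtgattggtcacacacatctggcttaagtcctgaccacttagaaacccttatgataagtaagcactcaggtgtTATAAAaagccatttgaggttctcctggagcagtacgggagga
Bpifa2: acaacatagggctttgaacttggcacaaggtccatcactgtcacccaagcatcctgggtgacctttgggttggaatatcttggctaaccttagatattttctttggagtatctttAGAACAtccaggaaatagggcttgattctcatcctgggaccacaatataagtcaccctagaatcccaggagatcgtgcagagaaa
Amy1 upstream start: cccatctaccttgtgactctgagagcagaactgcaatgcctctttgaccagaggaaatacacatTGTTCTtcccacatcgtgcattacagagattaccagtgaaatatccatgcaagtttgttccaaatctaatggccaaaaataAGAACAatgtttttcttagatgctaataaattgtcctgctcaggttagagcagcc
Amy1 downstream start: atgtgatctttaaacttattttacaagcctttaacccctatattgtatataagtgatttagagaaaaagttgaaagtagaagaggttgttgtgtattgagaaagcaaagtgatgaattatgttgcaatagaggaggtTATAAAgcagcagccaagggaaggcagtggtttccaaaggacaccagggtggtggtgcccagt
Pip: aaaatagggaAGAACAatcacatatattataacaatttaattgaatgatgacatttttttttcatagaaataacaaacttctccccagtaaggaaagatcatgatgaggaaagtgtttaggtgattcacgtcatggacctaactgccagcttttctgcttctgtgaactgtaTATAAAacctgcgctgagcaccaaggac
Scgb1b27: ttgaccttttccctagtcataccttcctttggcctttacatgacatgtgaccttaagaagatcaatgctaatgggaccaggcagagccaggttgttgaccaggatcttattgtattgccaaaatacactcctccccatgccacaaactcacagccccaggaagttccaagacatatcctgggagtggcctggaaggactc
Scgb2b27: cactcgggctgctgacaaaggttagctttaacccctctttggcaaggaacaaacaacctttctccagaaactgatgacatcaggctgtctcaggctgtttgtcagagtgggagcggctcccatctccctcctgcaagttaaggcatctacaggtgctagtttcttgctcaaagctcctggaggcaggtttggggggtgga
TATAAA stood 28 to 23 bases before the start of Pip, 43 to 38 bases before that of Chia1 and 63 to 58 bases before the downstream start of Amy1. AGAACA stood 190 to 185 bases before the start of Pip and 85 to 80 bases before that of Bpifa2. In the upstream window of Amy1 it stood at 55 to 50 bases and, on the opposite strand, at 136 to 131 bases. None of the 3 motifs occurred in the windows of Scgb1b27 and Scgb2b27, and TGTTTAC occurred in none of the 7. These matches are descriptions of the letters in these windows.

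Values are on the log2 scale of the array, where a difference of 1 is a doubling of signal, and the levels of different genes are not compared because their probes differ. A gene was counted as above background in a tumor where its value passed 5.76, the 95th percentile of the mean levels of 1215 olfactory, vomeronasal and taste receptor genes. Krt8, a keratin of luminal epithelium, was at 10.39 or more in every tumor, and Epcam, an epithelial adhesion molecule, at 8.96 or more. The median correlation of an array with the others was 0.975 in a typical array, and 6 arrays fell well below the rest, of which that of animal 14903 was the lowest at 0.895. That tumor was the highest of the 159 for each of the 5 genes, so results that rest on it are also given without it.

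Chia1 had the most uneven pattern. It was 4.98 in the lowest tumor, had a median of 5.31 and reached 13.77 in the highest, and it was above background in 18 of the 159 tumors. In 9 tumors it was 10.02 or more, and no tumor lay between these and the next value, 8.37 in animal 14922. The 9 tumors, in descending order of Chia1, were those of animals 14903 (13.77), 14606 (13.37), 14542 (13.35), 14919 (13.26), 14729 (13.20), 14578 (13.02), 14959 (12.19), 14948 (10.71) and 14945 (10.02). They are called the 9 tumors apart below. Chia1 in animal 14903 was 353-fold over the median tumor, whose value lay below the background level. Over the other 150 tumors Chia1 had an SD of 0.50, and 141 of the 159 tumors did not pass background.

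Bpifa2 spread more evenly below the same tumors. Its lowest value was 5.03, its median 6.12 and its highest 13.73, with 102 tumors above background. The 9 tumors apart held 12.32 to 13.73 and were the 9 highest for Bpifa2. The other 150 reached 11.75, in animal 14956, and the values between the lowest and the highest left no gap of more than 1 log2. In 38 tumors Bpifa2 was more than 2 log2 above its median, and 29 of these were outside the 9.

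Amy1 was 4.90 in the lowest tumor, had a median of 5.31 and was 13.28 in the highest, with 49 tumors above background. The 9 tumors apart were again its 9 highest. The 6 highest, at 12.32 or more, stood clear of the next, animal 14959 at 10.62, and animals 14948 and 14945 followed at 10.12 and 9.27. Outside the 9 tumors apart Amy1 reached 8.73 in animal 14730. In 19 tumors it was more than 2 log2 above its median, and 10 of these were outside the 9.

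Pip covered nearly its whole range without a break. Its lowest value was 4.83, its median 6.51 and its highest 13.52, and 104 tumors were above background. In 47 tumors Pip was more than 2 log2 above its median, the largest such number among the 5. The 9 tumors apart held 7.77 to 13.52 and overlapped the other 150, which reached 12.96 in animal 14767. Of the 9 highest tumors for Pip, 4 were among the 9 apart.

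Scgb1b27 was above background in all 159 tumors. Its lowest value was 5.98, its median 9.53 and its highest 13.14. It was more than 2 log2 above the median in 25 tumors and more than 2 log2 below it in 35, so that its spread ran in both directions. Counts of high tumors depended on the threshold, and above 3 log2 they were 7 for Scgb1b27, 23 for Bpifa2 and 11 for Amy1. The 9 tumors apart held 6.55 to 13.14 and lay throughout the range of the others, with 1 of them among its 9 highest.

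**Figure D1:**
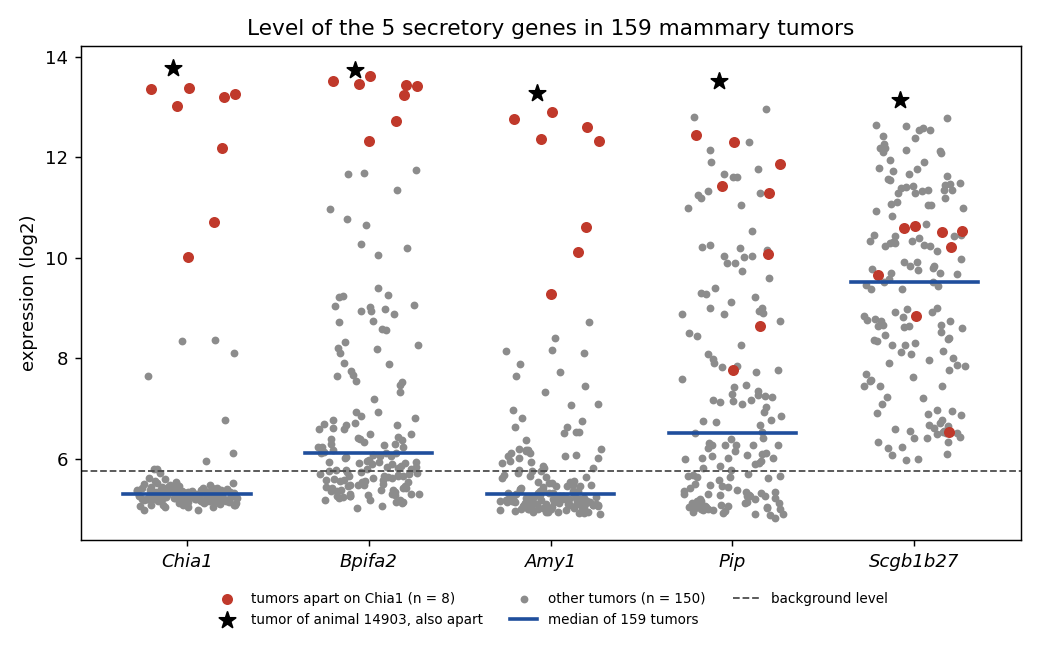
Level of each gene (log2, vertical axis) in the 159 tumors, 1 point per tumor, with the 8 other tumors apart on Chia1 in red, animal 14903 as a black star, the 150 remaining tumors in gray, the median as a blue bar and the background level of 5.76 as a dashed line. The red points and the star are the 9 highest for Chia1, Bpifa2 and Amy1, overlap the gray points for Pip, and lie within them for Scgb1b27 apart from the star at 13.14.

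In SD across tumors Pip ranked 3rd of the 18954 named genes (mean 7.39 ± 2.34, SD, n = 159). Bpifa2 ranked 5th (7.05 ± 2.20), Scgb1b27 11th (9.38 ± 1.96), Chia1 19th (5.79 ± 1.75) and Amy1 25th (5.96 ± 1.67). The variance of the 5 was 57.8 to 114 times the median variance of all probe sets. By the log intensity variation test, 43.9% of all named genes had p under 0.05, and all 5 did. Each of the 5 had at least 1 tumor more than 2 log2 above its median, against 10.1% of all named genes. These counts follow from how the genes were picked and are given for scale. With a variance taken from the median absolute deviation, which single tumors hardly move, 4 of the 5 passed.

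High values of the genes fell in overlapping sets of tumors. Of the 159 tumors, 95 were more than 2 log2 above the median in none of the 5 genes, 27 in 1, 12 in 2, 11 in 3, 12 in 4 and 2 in all 5, namely animals 14903 and 14904. All 13 tumors high for Chia1 were also high for Bpifa2, which is 34.2% of the 38 tumors high for Bpifa2. Of the 19 tumors high for Amy1, 16 (84.2%) were high for Bpifa2. Of the 25 tumors high for Scgb1b27, 21 (84.0%) were high for Pip, which is 44.7% of the 47 high for Pip. Both Chia1 and Scgb1b27 were high in 2 tumors, 15.4% of the first set and 8.0% of the second. For scale, of all 159 tumors Pip was high in 47, Bpifa2 in 38, Scgb1b27 in 25, Amy1 in 19 and Chia1 in 13. The overlap of Chia1 and Scgb1b27 was near these shares and is not read as a separation of their tumors. In 10 tumors Chia1, Bpifa2 and Amy1 were all high, the 9 tumors apart and animal 14904.

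Within the 9 tumors apart, Chia1, Bpifa2, Amy1 and Pip kept a common order. Animal 14606 held 13.37 for Chia1, 13.63 for Bpifa2, 12.91 for Amy1 and 12.31 for Pip. Animal 14945, the lowest of the 9 for each of these genes, held 10.02, 12.32, 9.27 and 7.77 for the same genes. Across the 9, Pearson's r between any pair of these 4 genes was 0.95 to 0.99, while r of Scgb1b27 with each of them was 0.06 to 0.27. The 9 were chosen on one of the genes, so these are descriptions. Scgb1b27 was 13.14 in animal 14903, 8.84 in animal 14606 and 6.55 in animal 14959, a span within the 9 that the other 4 genes did not follow.

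Below the 9 came 4 further tumors with Chia1 more than 2 log2 above its median. They were animals 14922 (8.37), 14904 (8.34), 14956 (8.11) and 14607 (7.65). Bpifa2 was 11.36, 11.70, 11.75 and 10.97 in these 4 tumors. Amy1 was 6.54, 7.34, 7.09 and 6.11, and Pip was 6.67, 9.90, 5.67 and 5.69 in the same order. High Bpifa2 was thus shared by all 4, while Pip was high in 1.

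The tumors were not spread evenly over the animal numbers. Sorted into blocks by the leading 3 digits of the animal number, 5 of the 9 tumors apart and 8 of the 13 tumors high for Chia1 fell in the 149 block of 32 tumors. The 145 block of 27 tumors held 2 of the 9, the 146 block of 26 and the 147 block of 41 held 1 each, and the 148 block of 28 held 0. The sources used here do not say how arrays were run by animal number, and the part of the block in the result was not tested. The median of Chia1 was 5.35 in the 149 block and 5.18 to 5.34 in these 4 blocks.

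Some other genes of saliva, chosen after their values were seen, were high in most or all of the same 9 tumors. Cst10, a cystatin and so an inhibitor of cysteine proteases, held 8.04 to 13.79 in the 9 and at most 7.80 in the other 150. Dnase1, the secreted endonuclease DNase I, held 5.83 to 12.26 in the 9 and at most 6.08 in the rest, and was above every one of the rest in 8 of the 9. Smr3a, a submaxillary gland protein under androgen control, held 6.90 to 12.84 in the 9 and 4.76 to 10.53 in the rest. Dcpp1, the demilune cell and parotid protein, held 8.82 to 13.08 in the 9 and 5.83 to 11.99 in the rest. Smr3a and Dcpp1 each exceeded all 150 other tumors in 6 of the 9, as did Prpmp5, a proline-rich salivary protein, and Pax9, a transcription factor. Lpo, lactoperoxidase of saliva and milk, held 6.53 to 12.81 in the 9 and 5.58 to 9.73 in the rest. Lpo in animal 14948 (6.53) and Prpmp5 in animal 14945 (4.32) lay below the medians of the rest (6.61 and 4.35). The score of the salivary list, taken over its 20 genes with a mean above background, was 2.65 in animal 14903. It was -0.12 to 0.95 in the other 8, inside the -1.37 to 1.18 of the 150 tumors. Cst10, Dnase1, Smr3a and Prpmp5 had means below background and were not part of that score.

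Animal 14903 differed from the other 8 in genes of the submandibular gland. Smgc, submandibular gland protein C, was 13.47 in this tumor and at most 5.20 in the other 8. Klk1b22, a glandular kallikrein, was 13.56 there and at most 7.85 in the other 8. Egf, epidermal growth factor, was 12.25 there and at most 7.63 in the other 8. Among the 150 tumors outside the 9, Smgc reached 10.43, Klk1b22 12.20 and Egf 9.67. Its score for proliferation genes was -6.64, below the -1.85 to 1.95 of the 150 tumors outside the 9. Its luminal epithelium score of -1.80 lay inside the -4.23 to 1.23 of the 150. Its milk score of -2.36 lay below their -2.235 to 1.46, and its apocrine score of 1.54 lay above their -0.67 to 0.565. The other 8 lay inside the range of the 150 in proliferation. Without animal 14903 the remaining 8 were still the highest tumors for Chia1, Bpifa2, Amy1 and Cst10.

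Epithelial and other markers did not set the 9 apart. Krt8 was 11.76 to 12.64 in the 9 and 10.39 to 12.96 in the rest, and Epcam was 10.10 to 10.84 in the 9 and 8.96 to 11.25 in the rest. Elf5, a transcription factor of milk-secreting cells, was 9.85 to 11.64 in the 9 and 8.31 to 11.77 in the rest. Cd3e, of T cells, was 6.91 to 7.48 in the 9 and 6.49 to 11.81 in the rest, and Cd79a, of B cells, was 4.71 to 4.99 in the 9, below background in each. Aqp5, a water channel of salivary acini, was 11.18 to 11.68 in the 9 and 10.25 to 12.23 in the rest. Bhlha15, a transcription factor of secretory acinar cells, was 9.95 to 11.08 in the 9 and 8.27 to 11.28 in the rest. In a piece of tumor, fewer cells of one type and less RNA per cell cannot be told apart, and whether the 9 pieces held salivary or mammary cells was not tested.

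**Figure D2:**
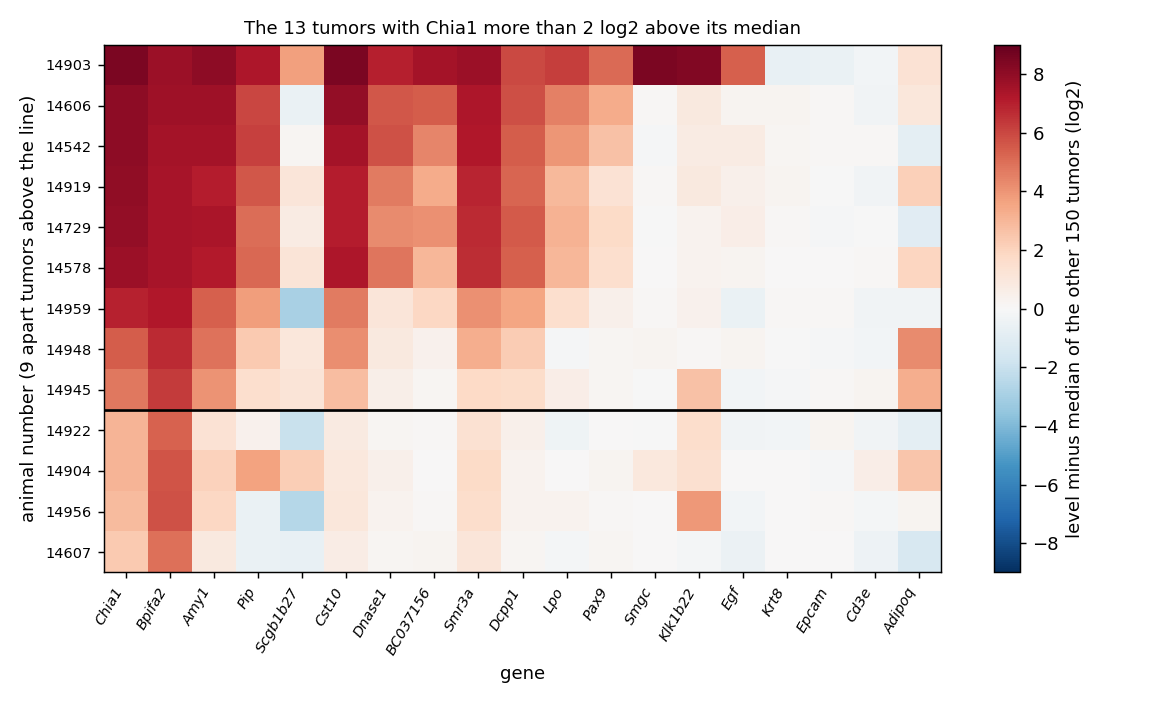
Level minus the median of the other 150 tumors (log2, color) for 19 genes (columns) in the 13 tumors with Chia1 more than 2 log2 above its median (rows, by animal number in descending order of Chia1), with the 9 tumors apart above the line. Chia1, Bpifa2, Amy1, Cst10, Smr3a and Dcpp1 are above 0 in all 9, Smgc and Egf are high in animal 14903, and Krt8, Epcam and Cd3e stay near 0.

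The list of salivary acinar and duct genes was read over all tumors. Of its 44 genes other than the 5, 34 were measured, 20 had a mean above background and 32 passed the variation test. For 24 of the 34 the highest tumor was one of the 9 tumors apart, against 8.86% of all named genes, and for 23 of these 24 that tumor was animal 14903. In 27 of the 34 at least 1 tumor was more than 2 log2 above the median. Bpifb1, a BPI fold protein of airway and salivary mucus, had 30 such tumors and an SD of 1.45, and Smr2, another submaxillary gland protein, had 29 with an SD of 1.56. Bpifb1 and Smr2 had a rank correlation with Bpifa2 of -0.12 and 0.12.

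Co-variation was then read with and without the 9 tumors apart. Between Chia1 and Amy1, r was 0.88 over 159 tumors and 0.27 over the other 150, with Spearman's rho of 0.20 and 0.05. Between Chia1 and Bpifa2, r was 0.77 over 159 tumors and 0.53 over the 150, and 0.42 in the 150 without the 2 tumors farthest from the Chia1 median. Between Bpifa2 and Amy1, r was 0.74 over 159 tumors and 0.41 over the 150. Between Pip and Chia1, r was 0.39 over 159 tumors and -0.00 over the 150. The relation of Chia1 to Pip therefore rested on the 9 tumors. That of Chia1 to Amy1 was weaker without them, and over the 150 its r within blocks of animal numbers was -0.10 to 0.87.

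Pip, Scgb1b27 and Bpifa2 followed one another in the remaining tumors as well. Over the 150, r was 0.54 between Pip and Scgb1b27 (rho 0.51), 0.45 between Pip and Bpifa2 (rho 0.44) and 0.44 between Scgb1b27 and Bpifa2 (rho 0.52). Within the 5 blocks of animal numbers rho over all tumors was 0.46 to 0.61 for Pip and Scgb1b27, 0.28 to 0.57 for Pip and Bpifa2 and 0.18 to 0.76 for Scgb1b27 and Bpifa2, above 0 in each block. Chia1 and Scgb1b27 had r of 0.08 over 159 tumors and -0.03 over the 150. These values are descriptions, because the genes were chosen together.

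Each gene was set beside all other named genes to find those most like it. The genes nearest to Chia1 by r over 159 tumors were Cst10 (0.96), Dnase1 (0.89), Amy1 (0.88), BC037156 (0.87), Smr3a (0.84) and Prpmp5 (0.83), and Bpifa2 followed in 8th place. Over the 150 remaining tumors the r of Cst10 was 0.53 and that of Smr3a was 0.18. By rho the nearest genes were Pax9 (0.65), Pitx1, F12, Dkk1, Mir187 and Ccdc185, and 4 of these 6, F12, Dkk1, Mir187 and Ccdc185, had an SD of 0.27 or less. Chia1 was not above background in 141 tumors, and its rho with the mean score of the receptor genes that set the background was 0.35. The part of background signal in the ranks of Chia1 was not tested.

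The nearest genes to Bpifa2 by r were Chia1 (0.77), Amy1 (0.74), Cst10 (0.72), Dnase1 (0.65), Odam (0.64) and Lpo (0.62). By rho they were 2310057J18Rik (0.67), for which the gene table gives the synonym Leg1, Car6 (0.58), Pip (0.51), Lpo (0.51), Chpt1 (0.505) and Scgb1b27 (0.505). Car6 is the carbonic anhydrase secreted in saliva. Bpifa2 thus stood near both sets, the genes high in the 9 tumors by r and the more widely spread secretory genes by rank. Only 6 of 18953 genes (0.0317%) had rho over 0.5 with Bpifa2, and the same number had it with Pip.

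Pip was nearest by r to Ccl28 (0.63), a chemokine of mucosal epithelium, Oit1 (0.60), Mup5 (0.59), a major urinary protein that carries small odorants, Bpifa2 (0.57), Lpo (0.57) and Slc12a8 (0.56). By rho the nearest were Car6 (0.55), 2310057J18Rik (0.54), Ccl28 (0.54), Bpifa2 (0.51), Scgb1b27 (0.51) and Arg1 (0.50), an arginase. Over the 150 tumors r was 0.62 for Mup5, 0.59 for Arg1 and 0.58 for Ccl28. Animal 14767, the highest of the 150 for Pip and for Scgb1b27, was also the highest of all 159 tumors for Mup5 (12.06), Arg1 (11.63) and Scgb2b27 (12.31).

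By rho, Scgb1b27 had the closest likeness of the 5 to any other gene. Scgb2b27, the gene for a partner chain, lies 7.5 kb away on the same chromosome and had r of 0.84 and rho of 0.86 with it over 159 tumors. It was 5.78 in the lowest tumor and 12.31 in the highest. In the 24 tumors outside the 9 with Scgb1b27 more than 2 log2 above its median, Scgb2b27 was 10.75 to 12.31. The next nearest were 2310057J18Rik (r 0.73), Car6 (0.70), Klk1b11 (0.70), a glandular kallikrein, Pex11a (0.68), which acts in peroxisome division, and Sidt1 (0.67). By rho Slc31a2, a copper transporter, came 6th at 0.68. Over the 150 tumors r was 0.84 for Scgb2b27, 0.75 for 2310057J18Rik and 0.70 for Car6.

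**Figure D3:**
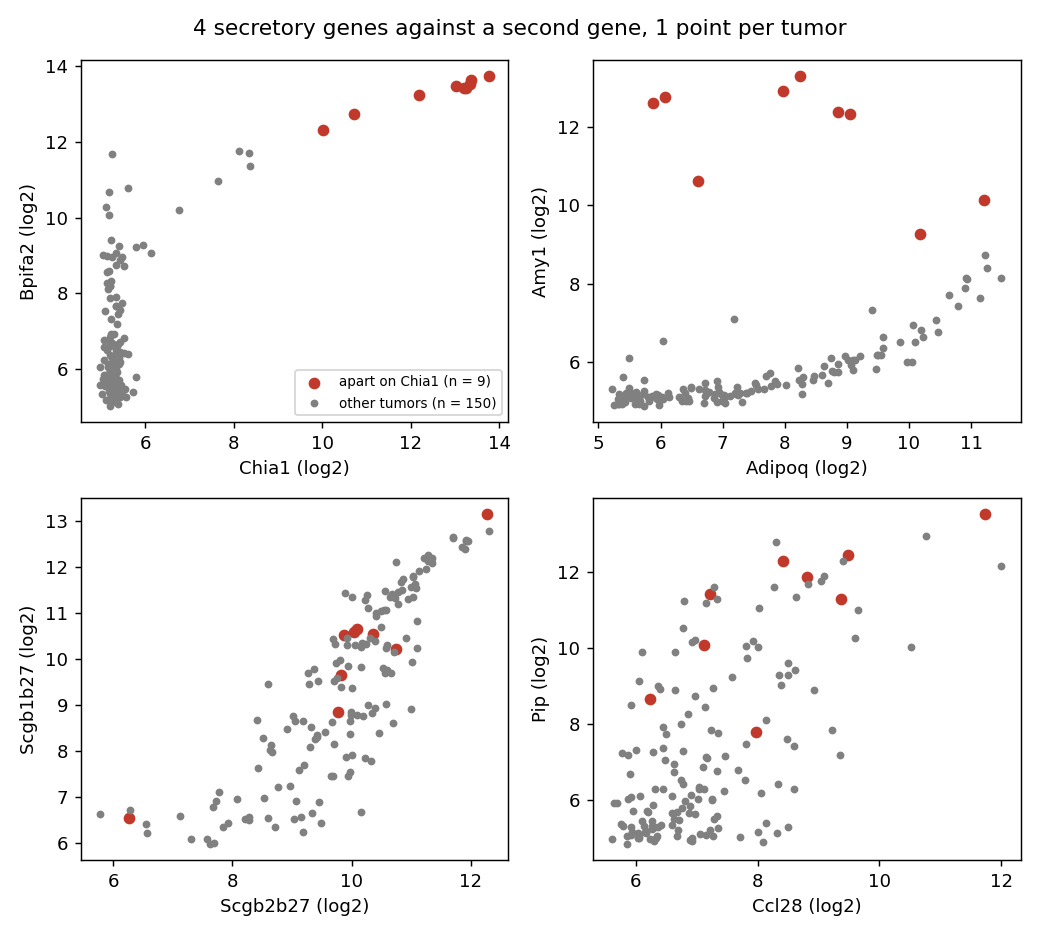
Level of 1 of the 5 genes (vertical axes, log2) against a second gene (horizontal axes, log2), 1 point per tumor, with the 9 tumors apart on Chia1 in red and the other 150 in gray. Bpifa2 rises with Chia1 in the red points, Amy1 rises with Adipoq in the gray points (r 0.84), Scgb1b27 follows Scgb2b27 in red and gray alike (r 0.84 over 159 tumors), and Pip follows Ccl28 more loosely (r 0.63).

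Amy1 showed a second pattern below the 9 tumors. By r over 159 tumors its nearest genes were Cst10 (0.89), Chia1 (0.88), Dnase1 (0.85), BC037156 (0.81), Prpmp5 (0.78) and Smr3a (0.75). By rho they were Aqp7 (0.75), a glycerol channel of fat cells, Adipoq (0.75), the fat cell hormone adiponectin, Mc2r (0.73) and Mrap (0.73), the corticotropin receptor and its accessory protein, Pck1 (0.73), a gluconeogenic enzyme that fat cells also use, and Plin1 (0.73), a coat protein of fat droplets. Over the 150 tumors r was 0.84 for Adipoq, 0.87 for Aqp7, 0.86 for Plin1 and 0.89 for Mc2r, while r was 0.24 for Cst10. In the 10 tumors outside the 9 with Amy1 more than 2 log2 above its median, Adipoq was 9.40 to 11.48, against a median of 6.99 over all 159. Of the 140 other tumors outside the 9, 15 also had Adipoq at 9.40 or more. In the 9 tumors apart Adipoq was 5.88 to 11.21, so that high Amy1 in them did not go with one level of Adipoq.

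The relation to lists of marker genes was tested with 12 scores, each the mean of standardized levels of the list's genes above background and without the 5 genes, for 60 pairs of gene and score. Tests were two-sided permutation tests with p adjusted over the 60 pairs, and the smallest unadjusted p they could give was 1e-05. Over 159 tumors, 14 pairs had adjusted p under 0.05 by Pearson's r and 24 by Spearman's rho, with 13 in both. A call alone does not set a gene off from other genes, so the share of all named genes with a higher rho is given below. The lists were written with earlier results of these tumors known, and a relation between 2 measures in the same piece of tissue does not say which cells held the RNA.

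The adipocyte score was related to Amy1, Scgb1b27 and Bpifa2. For Amy1, r was 0.45 (adjusted p = 7.5e-05) and rho 0.73 (adjusted p = 7.5e-05) over 159 tumors, and r was 0.41 without the 2 tumors farthest from the median of the score. Over the 150 tumors without the 9, r was 0.84 (adjusted p = 8.6e-05) and rho 0.77 (adjusted p = 5.5e-05). Within the 5 blocks of animal numbers, Spearman's rho was 0.57 to 0.93. All 13 measured adipocyte genes had rho over 0.5 with Amy1, against 1.59% of all named genes. Their median rho was 0.71, with a median of -0.02 over all named genes. Scgb1b27 had r of 0.48 (adjusted p = 7.5e-05) and rho of 0.49 (adjusted p = 7.5e-05) with the same score, r was again 0.48 without the 2 farthest tumors, and within blocks rho was 0.19 to 0.58. Bpifa2 had r of 0.23 (adjusted p = 0.015) and rho of 0.24 (adjusted p = 0.0072), and r was 0.18 without the 2 farthest tumors. Its rho was -0.04 to 0.50 within blocks, so the relation was not above 0 in every block. The share of all named genes with a higher rho with this score was 0.74% for Amy1, 4.4% for Scgb1b27 and 14.5% for Bpifa2. For Pip rho with Adipoq was 0.04.

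The salivary score was related to each of the 5 genes over 159 tumors. The genes were picked as a salivary-type set with their co-variation known, and the list was written with earlier results known. The p-values for this score are therefore not independent support for a salivary pattern. For Scgb1b27, r was 0.63 (adjusted p = 7.5e-05) and rho 0.67, for Pip r was 0.61 (adjusted p = 7.5e-05) and rho 0.56, and for Bpifa2 r was 0.50 (adjusted p = 7.5e-05) and rho 0.51. The adjusted p of each of these 3 rho values was 7.5e-05 as well. Without the 2 tumors farthest from the median of the score, r was 0.63 for Scgb1b27, 0.61 for Pip and 0.45 for Bpifa2. Within blocks rho was 0.53 to 0.77 for Scgb1b27, 0.48 to 0.72 for Pip and 0.41 to 0.65 for Bpifa2. Over the 150 tumors r was 0.64 for Scgb1b27, 0.55 for Pip and 0.36 for Bpifa2. Chia1 had r of 0.42 (adjusted p = 1.3e-04) over 159 tumors and 0.05 (adjusted p = 0.70) over the 150, so its relation rested on the 9 tumors. Amy1 had r of 0.49 (adjusted p = 7.5e-05) over 159 tumors and 0.26 (adjusted p = 0.0062) over the 150. The share of all named genes with a higher rho was 0.03% for Scgb1b27, 0.1% for Pip and 0.23% for Bpifa2. It was 3.36% for Amy1 and 5.27% for Chia1. The order of the 5 genes depended on the background level that decided which list genes entered the score. With that level at the 75th percentile of the receptor genes, r over 159 tumors was 0.65 for Amy1 and 0.62 for Chia1. It was then 0.61 for Pip, 0.585 for Bpifa2 and 0.49 for Scgb1b27. Among the genes let in at that level were Cst10, Dnase1 and Smr3a, which were high in most or all of the 9 tumors apart. The score at that level was read over 159 tumors alone, with the 9 included. Among the 34 measured genes of the list, 8 had rho over 0.5 with Scgb1b27, against 0.433% of all named genes, with Scgb2b27, Car6, Klk1b11, Scgb2b24 and Egf among them. Scgb2b27 and Scgb2b24 are also of its own family.

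The score of apocrine and androgen receptor genes was related to Pip and to Scgb1b27. For Pip r was 0.39 (adjusted p = 7.5e-05) and rho 0.33 (adjusted p = 2.7e-04), with rho of 0.18 to 0.50 within blocks. For Scgb1b27 r was 0.41 (adjusted p = 7.5e-05) and rho 0.38 (adjusted p = 7.5e-05), with rho of 0.13 to 0.49 within blocks. Without the 2 farthest tumors r was 0.34 for Pip and 0.37 for Scgb1b27. The share of all named genes with a higher rho was 0.47% for Pip and 0.1% for Scgb1b27. The limit given for the salivary score holds for this score too. The list's genes did not move as one. Spdef, a transcription factor of secretory epithelium, had rho of 0.63 with Scgb1b27, and Foxa1, a factor that opens chromatin for steroid receptors, had 0.42, while Cldn8, a tight junction protein, had -0.23 and Muc1, a membrane mucin, had 0.03. When the first principal component of the list stood in for its mean, r with Scgb1b27 was -0.14 (adjusted p = 0.24) and r with Pip was 0.17 (adjusted p = 0.12), and neither call was kept.

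The luminal epithelium score was related to Scgb1b27 (r 0.30, adjusted p = 3.6e-04, and rho 0.36, adjusted p = 7.5e-05). With the first principal component as its score, r was 0.13 (adjusted p = 0.28) and the call was lost. A higher rho with the luminal epithelium score was found in 2.2% of all named genes. The proliferation score had r of -0.27 with Scgb1b27 (adjusted p = 0.0016), -0.23 with Amy1 (adjusted p = 0.046) and -0.22 with Pip (adjusted p = 0.020). Without animal 14903, whose proliferation score was far below the rest, r was -0.03 for Amy1 (adjusted p = 0.85) and -0.12 for Pip (adjusted p = 0.31). Over the 150 tumors without the 9, r was -0.28 for Amy1 (adjusted p = 0.0038) and -0.19 for Pip (adjusted p = 0.053). Over 159 tumors, 86.3% of all named genes had a higher rho with proliferation than Scgb1b27, 87.1% than Amy1 and 58.1% than Pip. By rho, Chia1 was related to the pancreatic acinar score (0.55, adjusted p = 7.5e-05) where r was 0.17 (adjusted p = 0.11), and 11.3% of all named genes had a higher rho with that score than Chia1. By rho Amy1 was also related to the T cell score (0.35, adjusted p = 2.4e-04) and to the milk score (0.28, adjusted p = 0.0017), and r was 0.09 and 0.15, without a call. Further pairs were called by rho and not by r. Chia1 had rho of 0.34 with the B cell score (adjusted p = 1.3e-04) and -0.30 with proliferation (adjusted p = 6.5e-04). It had 0.25 with skeletal muscle (adjusted p = 0.0050) and 0.23 with the T cell score (adjusted p = 0.0098). Of all named genes, 17.1% had a higher rho than Chia1 with the B cell score, 90.4% with proliferation, 5.68% with skeletal muscle and 16.7% with the T cell score. These are ranks of a gene that did not pass background in 141 tumors. Scgb1b27 had rho of 0.24 with the T cell score (adjusted p = 0.0072) and 0.21 with sebaceous genes (adjusted p = 0.021). Bpifa2 had rho of 0.21 with luminal epithelium (adjusted p = 0.021) and Amy1 had 0.21 with skeletal muscle (adjusted p = 0.023). Of all named genes, 15.6% had a higher rho than Scgb1b27 with the T cell score and 4.25% with sebaceous genes. The share was 11.5% for Bpifa2 with luminal epithelium and 10.7% for Amy1 with skeletal muscle. For Amy1 it was 7.36% with the T cell score and 7.32% with the milk score.

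**Figure D4:**
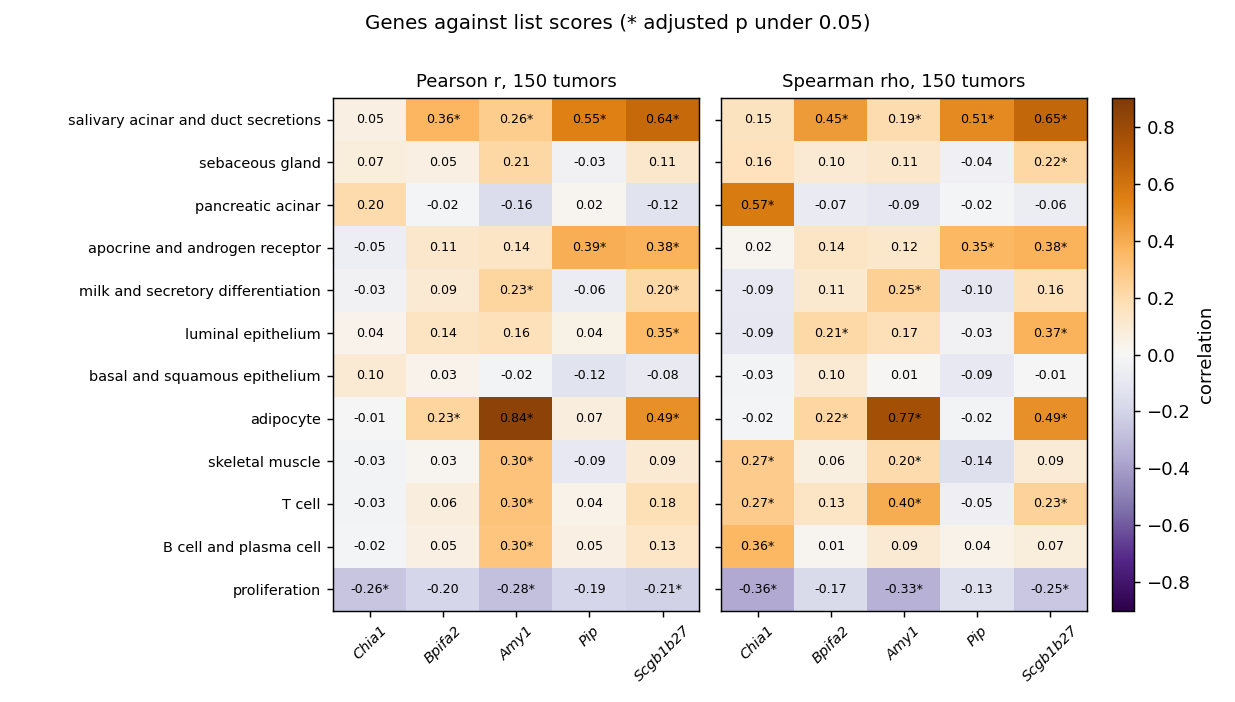
Pearson's r (left) and Spearman's rho (right) of the 5 genes (columns) with 12 list scores (rows) over the 150 tumors outside the 9 tumors apart, printed in each cell and shown by color, with a star where the permutation p adjusted over 60 pairs was under 0.05. The largest value is that of Amy1 with the adipocyte score (r 0.84), the salivary score has its largest values with Scgb1b27 (r 0.64) and Pip (r 0.55), and Chia1 has r near 0 with the salivary score.

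Among relatives and neighbors of the 5 genes, a secretoglobin came closest to a member. Of the genes next to Pip on its chromosome, Sval2, of the same family and 8.2 kb away, had a median of 4.26 and a highest value of 8.41, in animal 14903, and r of 0.46 with Pip. Sval1 and Sval3, of the same family, stayed below background in every tumor. Next to Chia1, the chitinase-like Chil3 and Chil4 had r of -0.01 and 0.04 with it, and Chil3 reached 7.14 in animal 14562. Chil1, the chitinase-like protein of mammary epithelium and macrophages, was at 10.34 or more in every tumor, with a median of 12.90 and rho of 0.19 with Chia1.

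Around Bpifa2, its 6 measured neighbors were all of the BPI fold family, and the highest value of any of them was 6.66, for Bpifa6 in animal 14903. Farther off, the family members Bpifb5 (8.24 ± 1.47, SD, n = 159) and Bpifb1 (6.72 ± 1.45) varied widely, with rho of -0.26 and -0.12 with Bpifa2. Rnpc3, the measured gene nearest to Amy1 at 27.3 kb, had r of -0.03 with it. Secretoglobins near Scgb1b27 did follow it beyond Scgb2b27. Scgb2b24, 282 kb away, had r of 0.50 and rho of 0.67 with it, and Scgb2b2, 2716.5 kb away, had r of 0.41 and rho of 0.53. Their medians were 6.03 and 6.86 and their highest values 12.82 (animal 14767) and 12.67 (animal 14623). Wtip, 86.7 kb to the other side and not a secretoglobin, had r of 0.46. Secretoglobin genes are close copies of each other, so the level of a single member is uncertain.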

How the data were processed

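Affymetrix mouse ST arrays were hybridized with RNA of 159 tumors. In BRB ArrayTools 4.3.2 the authors scaled every array to the median array and did no batch correction, and what they deposited are log2 values between 3.47 and 13.88. Whether the deposited values are the output of that scaling is not stated. For the steps before it, from background to probe summary, the method was not given in the sources used here.

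From these, each array (medians 6.81 to 7.18) was shifted so that its differences from the median array had a median of 0. Of 20718 probe sets, 18965 carried 1 gene symbol, and 18940 of these were updated through the gene table. Those with several symbols (688) or none listed (1065) were not named. For a gene with several probe sets the one of highest mean was taken. The variation test set each variance against the median variance of all probe sets by a one-sided chi-square. A tumor was high above 2 log2 over the gene's median, and apart past the first gap of more than 1 log2 above the median. Scores needed at least 5 genes, which left out the lacrimal list (8 of 19 genes measured, 1 above background). Correlations used 100000 permutations with tumors taken as independent, Benjamini-Hochberg adjustment over 60 pairs, and were repeated in blocks sharing the leading digits of the animal number, except 1 block of 5 tumors. The number of arrays limits the precision, and each tumor is 1 array.

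The 5 genes, the gene lists and the tests were chosen with earlier results of these data known. Named genes were the 5, for each the 6 genes nearest by r and by rho, up to 4 variable members of each list, the family members above background and adjacent genes. BC037156, Odam, Dnase1, Pax9 and other genes compared between the 9 tumors apart and the rest, and the further list members given with a value, were chosen after their values were seen. The steps were tested on simulated data. Software was Python 3.11.15 with pandas 2.3.3, numpy 2.4.6, matplotlib 3.10.9 and scipy 1.17.1. Settings tried beside these were the unshifted deposited values, quantile normalization, leaving out the 6 arrays of low correlation or the tumors apart, block means removed, rank correlation, other thresholds and other scores. Leaving out animal 14903 alone was added after seeing the data.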

Additional observations from a re-analysis of the deposited data

How the results depend on the processing

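All 5 genes passed the variation test under each alternative except the robust variance, under which 4 passed. The tumors high for Chia1, Bpifa2 and Amy1 together numbered 9 or 10 under each alternative. The pairs of genes with a correlation over 0.5 numbered 5 of 10 over 159 tumors, 3 by Spearman's rho and 2 without the tumors apart. Without those tumors r turned to -0.001 for Pip and Chia1 and to -0.025 for Chia1 and Scgb1b27. The relations called numbered 14 by r and 24 by rho, and 10 to 19 under the other alternatives. With the first principal component r of Scgb1b27 with the apocrine score turned to -0.14. The causes were not tested. No paired analysis was possible because the tumors form 1 group. Chia1 and Amy1 lay below background in most tumors, where the order of small differences is uncertain. Their rho with the mean score of the receptor genes was 0.35 for Chia1 and -0.07 for Amy1. Over the 150 tumors Amy1 had rho of 0.77 with the adipocyte score. With 1 array per tumor the error of a single tumor is unknown.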
